A study of Homo sapiens with 4 samples.

Results

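The replication-dependent histone genes encode the core histones H2A, H2B, H3 and H4 and the linker histone H1 that cells make in bulk while they copy their DNA. They were taken as the GENCODE protein-coding genes whose symbol is H2AC, H2BC, H3C or H4C followed by a number alone, or H1-1 to H1-6, which gave 69 of the 20033 protein-coding genes on chromosomes 1 to 22, X and Y. The set held 6 H1, 17 H2A, 18 H2B, 13 H3 and 15 H4 genes. Of these, 55 lie on chromosome 6, 13 lie on chromosome 1 and H4C16 lies alone on chromosome 12.

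The measurement was chromatin immunoprecipitation and sequencing (ChIP-seq) with an antibody to the histone variant H3.3 in MRC5 cells, a line of human fetal lung fibroblasts that the study used in its SV40-immortalized form, MRC5_VA (the SV40 large T antigen binds the tumour suppressors p53 and RB). Wild-type cells were either left untreated (no UV) or irradiated with 10 J/m2 UV-C, short-wave ultraviolet light that makes bulky DNA lesions, and harvested 3 h later (after UV). The DNA of 3 replicates was pooled before sequencing, so each condition is 1 library and 1 peak list, and no difference between the conditions could be tested. A peak is a stretch of genome with more reads than its background by the authors' caller. The no UV list held 102949 peaks in 88822 distinct intervals (an interval may hold several summits) and the UV list 89740 peaks in 77183 intervals, with median widths of 435 and 449 bp. Read depth is not given in the files, and a deeper library yields more peaks and higher scores. Of the fibroblast markers, 7 of 10 had an interval within 1 kb of a transcription start site (TSS) in each list (not COL3A1, THY1 and TBX5), against 3 of 5 epithelial markers (KRT8, CDH1 and SFTPC) in each, 0 of 3 endothelial markers in each, and 1 of 4 blood cell markers without UV and 0 of 4 after UV; an H3.3 interval at a TSS is not a measure of expression.

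Replication-dependent histone genes are short, lack introns and lie in clusters, where many H2A and H2B genes stand back to back and share a promoter. Their messenger RNAs end in a conserved stem-loop in place of a poly(A) tail, and they are transcribed mainly in S phase at a nuclear structure called the histone locus body, organised by NPAT. H3.3, by contrast, is made throughout the cell cycle from H3-3A and H3-3B and is put into chromatin outside replication, mostly at active promoters, enhancers and transcribed genes. The question put to the data was where H3.3 lies on the genes for its replication-coupled counterparts, and how this compares before and after UV-C.

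The promoters of these genes are shown first because they are the stretches that H3.3 intervals reached least often, as the values further on give. All are hg38 sequence on chromosome 6 that ends at a TSS, and they carry in capitals the matches to 4 promoter motifs searched on both strands: the octamer ATTTGCAT bound by POU2F1 (OCT1), CCAAT bound by NF-Y, the TATA box core TATAAA, and GGTCCG, the core of the H4 promoter element bound by HINFP. Adjoining motifs may overlap, as in TTTATAAA. The 247 bases between the TSSs of H2BC11 and H2AC11 (chr6:27132796-27133042, plus strand) belong to a pair with intervals over both genes in both lists, and the 243 bases between H2BC13 and H2AC13 (chr6:27807930-27808172, plus strand) to a pair with an interval only after UV. The 250 bases before H3C1 (chr6:26020201-26020450, plus strand), H3C11 (chr6:27872347-27872596, minus strand) and H4C12 (chr6:27831561-27831810, minus strand) precede 3 genes described in the accounts of the H3 and H4 classes.
H2BC11/H2AC11: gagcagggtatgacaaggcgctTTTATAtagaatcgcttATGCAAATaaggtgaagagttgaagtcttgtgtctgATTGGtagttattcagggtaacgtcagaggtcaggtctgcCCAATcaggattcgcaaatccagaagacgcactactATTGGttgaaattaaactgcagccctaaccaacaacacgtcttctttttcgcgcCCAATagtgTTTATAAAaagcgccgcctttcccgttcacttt
H2BC13/H2AC13: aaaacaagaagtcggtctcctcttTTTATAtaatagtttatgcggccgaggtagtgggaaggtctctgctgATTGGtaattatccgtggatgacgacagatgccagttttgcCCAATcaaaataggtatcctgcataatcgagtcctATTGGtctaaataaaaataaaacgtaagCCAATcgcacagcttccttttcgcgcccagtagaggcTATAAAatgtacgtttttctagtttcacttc
H3C1: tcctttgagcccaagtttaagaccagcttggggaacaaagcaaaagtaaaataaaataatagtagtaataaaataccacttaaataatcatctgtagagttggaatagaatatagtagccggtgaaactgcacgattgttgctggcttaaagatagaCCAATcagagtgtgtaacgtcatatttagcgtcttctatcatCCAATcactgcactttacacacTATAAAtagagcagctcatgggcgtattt
H3C11: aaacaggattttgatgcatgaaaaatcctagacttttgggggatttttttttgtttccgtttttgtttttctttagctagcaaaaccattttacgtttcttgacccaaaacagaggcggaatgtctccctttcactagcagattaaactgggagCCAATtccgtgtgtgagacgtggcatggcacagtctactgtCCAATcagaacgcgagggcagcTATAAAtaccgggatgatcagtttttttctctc
H4C12: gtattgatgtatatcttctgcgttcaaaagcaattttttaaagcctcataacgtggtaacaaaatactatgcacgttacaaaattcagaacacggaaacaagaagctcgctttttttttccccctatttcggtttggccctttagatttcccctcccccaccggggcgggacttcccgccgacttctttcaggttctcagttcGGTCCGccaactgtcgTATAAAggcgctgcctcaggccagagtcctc

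Across RefSeq promoters (GRCh38.p14, 250 bases before to 50 after the start), 64 of the 69 genes were matched. The octamer was found in 14 of 18 H2B and 11 of 16 H2A promoters, 1 of 11 H3 promoters and none of the 13 H4 or 6 H1 promoters, against 1.77% of all 35116 promoters. CCAAT was present in all matched H1, H2A, H2B and H3 promoters but in 3 of 13 H4 promoters, against 34.6% of all. TATAAA occurred in 43 of the 64, against 11.5% of all promoters, and GGTCCG in 12 of 13 H4 promoters but in 1 each of the H2A, H2B and H3 promoters, against 11.3% of all. A match is a description of the letters and not a measured binding site.

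At the other end of the gene, a stem of 6 base pairs with a loop of 4 bases, 16 bases in all, was found near the 3′ end of 68 of the 69 canonical transcripts (the transcript GENCODE marks as representative). It was found in 75 of all 20033 protein-coding genes, or 0.374%. H2BC21 was the exception, its canonical transcript of 2224 bases running far past the coding part. The main forms, with the stem in capitals, are shown because they tell the H4 genes from the other classes. The first was carried by 39 genes and the second by 9 of the H1, H2A, H2B and H3 classes, and the third by 10 and the fourth by 4 H4 genes.
Form 1: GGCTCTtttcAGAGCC
Form 2: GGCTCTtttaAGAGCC
Form 3: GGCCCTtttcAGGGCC
Form 4: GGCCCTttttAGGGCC

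Counted by an interval overlapping the gene or lying within 1 kb of any of its TSSs, 45 of the 69 histone genes were marked without UV (65.2%, exact binomial 95% interval 52.8 to 76.3%) and 52 after UV (75.4%, 63.5 to 84.9%). These intervals of shares cover counting error only and treat genes as independent, which neighbours are not. The same rule marked 63.4% of all protein-coding genes without UV and 65.7% after UV, and both of these values lie inside the binomial 95% ranges of the histone genes, so the counts under this rule did not stand apart from the background. Both lists marked 44 histone genes and neither marked 16. The rule uses the GENCODE gene span, which for some genes runs far past the short canonical gene, to 37610 bases for H2BC4. Distant intervals thus enter the counts and the strengths by this rule. The strongest for H2BC4 without UV had its summit 18823 bp after the canonical TSS. H2BC6 was marked in both lists with no interval over its canonical gene of 470 bases. H1-5 had an interval only without UV (background 3.67%), and 8 genes had one only after UV (11.6%, 5.14 to 21.6%; background 6.03%). With the 1 kb window around the TSS alone, 43 genes were marked without UV (62.3%, 49.8 to 73.7%, background 48.0%). After UV, 52 were marked (75.4%, 63.5 to 84.9%, background 54.0%). By this window both backgrounds lay below the binomial ranges, so the standing against the background depended on the rule. With it, 1 gene was marked only without UV (background 3.2%) and 10 only after UV (14.5%, background 9.2%). The histone intervals numbered 66 without UV, of which 23 were assigned to more than 1 histone gene, and 69 after UV, of which 26 were. A counterpart in the other list overlapped 80.3% of the no UV and 72.5% of the UV histone intervals, against 57.3% and 65.6% of all intervals.

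Under this rule, set against 63.4% of all protein-coding genes without UV and 65.7% after UV, the share marked was highest for the H2A genes and lowest for the H1 genes in each list. Of 17 H2A genes, 14 were marked without UV and 15 after, and of 18 H2B genes, 13 and 15. The H3 genes went from 9 to 11 of 13 and the H4 genes from 7 to 9 of 15, while 2 of 6 H1 genes were marked in each list. In each class the exact intervals of the shares overlapped widely between lists, for H4 from 21.3 to 73.4% without UV and from 32.3 to 83.7% after UV. The order of the classes depended on the rule: with the canonical gene body alone, 3 of 15 H4 genes against 2 of 6 H1 genes were marked without UV, and with a 3 kb window 6 of 6 H1 genes against 15 of 17 H2A genes after UV.

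By place, the whole difference in counts lay on chromosome 6, where 36 of 55 genes were marked without UV and 43 after UV. On chromosome 1 the same 9 of 13 genes were marked in each list, and H4C16 in neither. The other 4 chromosome 1 genes are fully repeated copies, described below, in which reads have no unique place. The equal count there therefore says little about place. Within chromosome 6, the 32 genes from H1-1 to H4C8 between 26.0 and 26.3 Mb went from 22 to 26, the 5 genes from H2BC11 to H2AC12 stayed at 4, and the 16 genes from H2BC13 to H2BC17 went from 10 to 13. The remaining pair, H2AC1 and H2BC1, which encode testis forms, had no interval in either list.

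Within 1 kb of the TSS, the share of histone genes under an interval was highest in the coding part and lowest just before the TSS, in each list. The base 250 bp after the canonical TSS, a position chosen after the coverage by distance was seen and inside the coding part of these short genes, lay in an interval in 24 of the 69 genes without UV (34.8%, 23.7 to 47.2%; background 22.5%) and in 39 after UV (56.5%, 44.04 to 68.4%; background 32.0%). It was covered only after UV in 17 genes (24.6%, background 11.1%) and only without UV in 2, H1-5 and H2BC7 (2.90%, background 1.59%). Other protein-coding genes of up to 1 kb, a closer match in length, had this base covered in 28 of 453 without UV (6.18%) and in 29 after UV (6.40%).

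Just before the TSS, fewer histone genes than the background were covered when all classes were counted together. The base 100 bp upstream lay in an interval in 2 of the 69 histone genes without UV (2.90%, background 13.4%) and in 6 after UV (8.70%, background 22.9%). It was covered only after UV in 4 genes (background 10.8%), only without UV in 0 (background 1.21%), and in none of the 17 H2A or 18 H2B genes in either list. Without UV the covered genes were 1 of 6 H1 and 1 of 13 H3 genes. After UV they were 2 of 6 H1 (33.3%), 2 of 13 H3 (15.4%) and 2 of 15 H4 genes (13.3%), so the H1 share lay above the background. In the other genes of up to 1 kb this base was covered in 14 of 453 without UV (3.09%) and 31 after UV (6.84%), values near those of the histone genes. Those short genes were rarely covered on either side, with 3.1% and 4.4% at 500 bp before the TSS and 6.18% and 6.40% at 250 bp after it. The histone genes had 26.1% and 33.3% at 500 bp before the TSS (background 9.9% and 13.6%). The low value before the TSS was thus shared with other short genes. Coverage at 500 bp before the TSS came mainly from H2A genes (8 of 17 without UV, 10 after UV) and H2B genes (6 of 18 and 9). It was found in 2 and 1 of 13 H3, 2 and 3 of 15 H4 and 0 of 6 H1 genes in each list. The fall between covered flanks, not seen in the other short genes, was thus mainly a trait of the H2A and H2B genes. The lowest coverage was 2 of 69 genes, found 200 bp before the TSS without UV and 175 bp before it after UV, and the highest was found 200 bp after the TSS in both lists. No interval summit within 1 kb of a histone TSS fell in the 250 bp before it, in either list. Of these summits, 27 of 45 without UV (60.0%) and 39 of 53 after UV (73.6%) lay from 0 to 500 bp after the TSS. The TSS base itself lay in an interval in 6 genes without UV (8.70%, background 17.6%) and in 22 after UV (31.9%, background 28.2%), 16 of them only after UV (background 11.9%), and in 0 only without UV (background 1.27%). In the other genes of up to 1 kb it was covered in 4.64% and 7.73%.

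**Figure D1:**
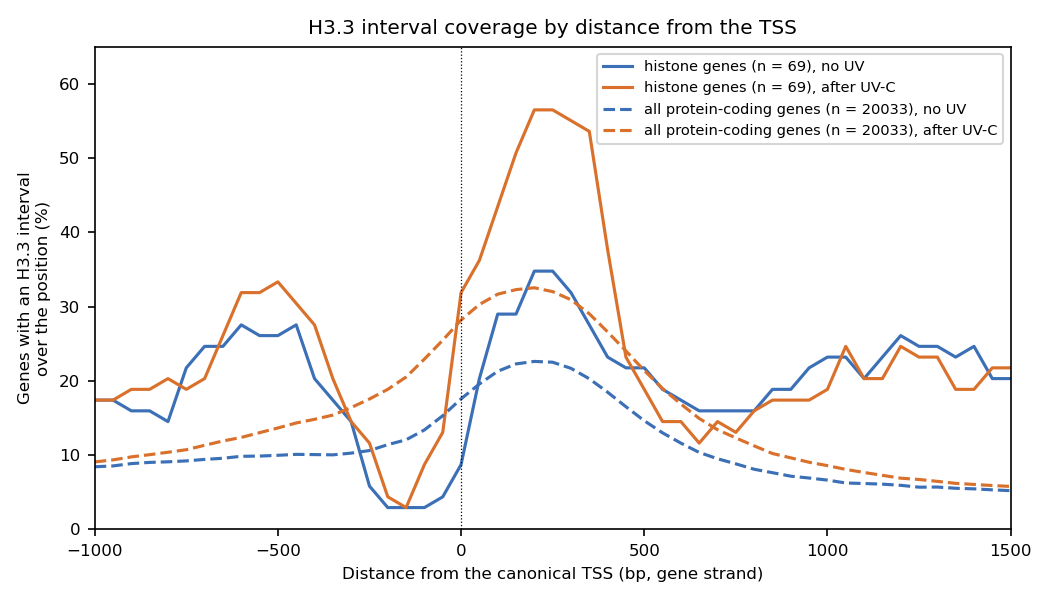
The share of genes (vertical axis, %) with an H3.3 interval over each position is plotted against distance from the canonical TSS (horizontal axis, bp), for the 69 histone genes (solid lines) and all 20033 protein-coding genes (dashed lines), without UV in blue and after UV-C in orange. The histone genes dip to 2 of 69 before the TSS and peak 200 bp after it, at 34.8% without UV and 56.5% after UV.

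**Figure D2:**
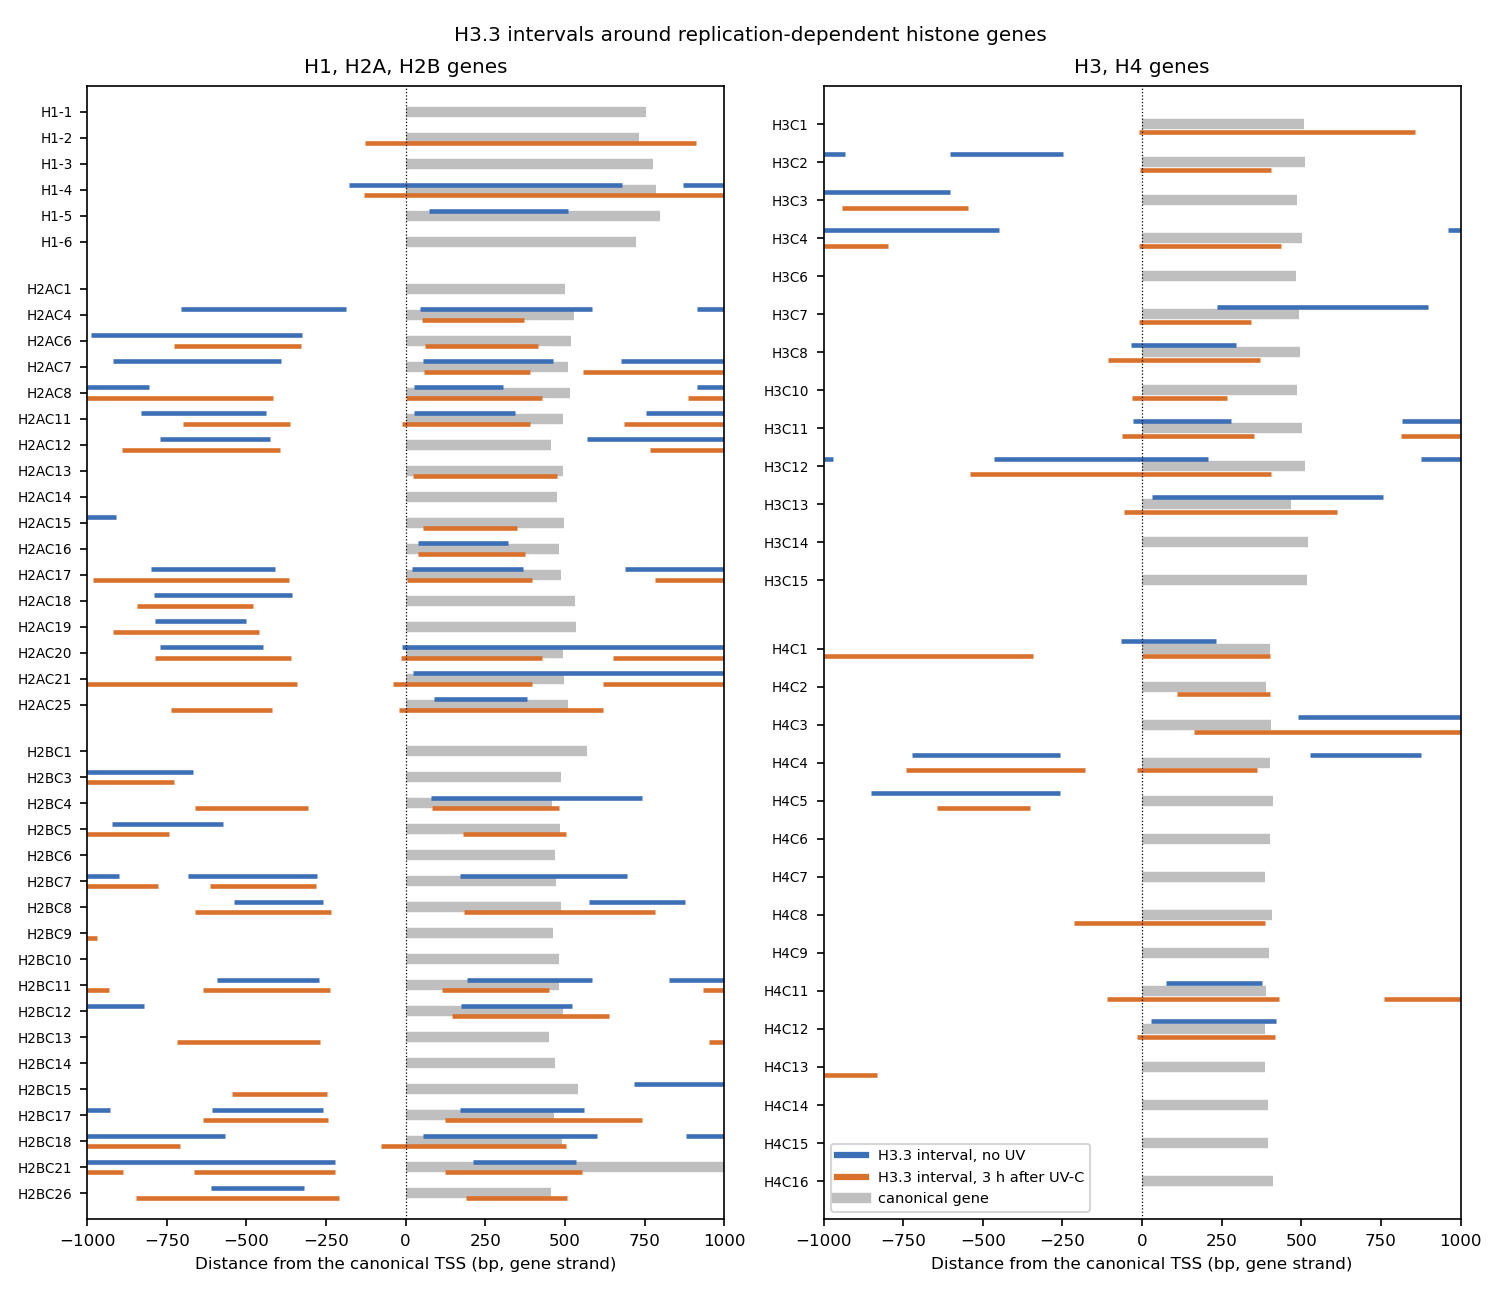
Each row is a histone gene, with its canonical span as a grey bar from the TSS at 0 (drawn to at most 1000 bp) and the H3.3 intervals within 1 kb of the TSS without UV (blue) and after UV-C (orange), on the gene strand in bp. Intervals sit over the grey bars and, mainly for H2A and H2B genes, over the neighbouring gene upstream, with a gap just before the TSS in most rows. H3 and H4 rows have more orange than blue over the gene.

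The difference between the lists over the gene itself was largest for the H3 and H4 genes. Intervals covered 9229 of the 36010 bases of the 69 canonical genes without UV (25.6%) and 15370 after UV (42.7%). For H3 genes this share was 22.8% without UV and 54.8% after UV, and for H4 genes 14.9% and 41.0%, or 2.40 and 2.74 times as many bases. For H2A genes it was 39.6% and 54.4%, for H2B genes 22.5% and 30.7%, and for H1 genes 24.5% and 33.2%. In other protein-coding genes of up to 1 kb it was 3.90% and 4.95%. Gene by gene, 34 of the 69 had more bases covered after UV, 7 had fewer and the remaining 28 had none covered in either list. Of 13 H3 and 15 H4 genes, 9 and 7 had more bases covered after UV, 0 had fewer, and 4 and 8 had none in either list. This tally was not made for all protein-coding genes. Among those, too, gains outnumbered losses at the base 250 bp after the TSS: 11.1% were covered only after UV and 1.59% only without UV.

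**Figure D3:**
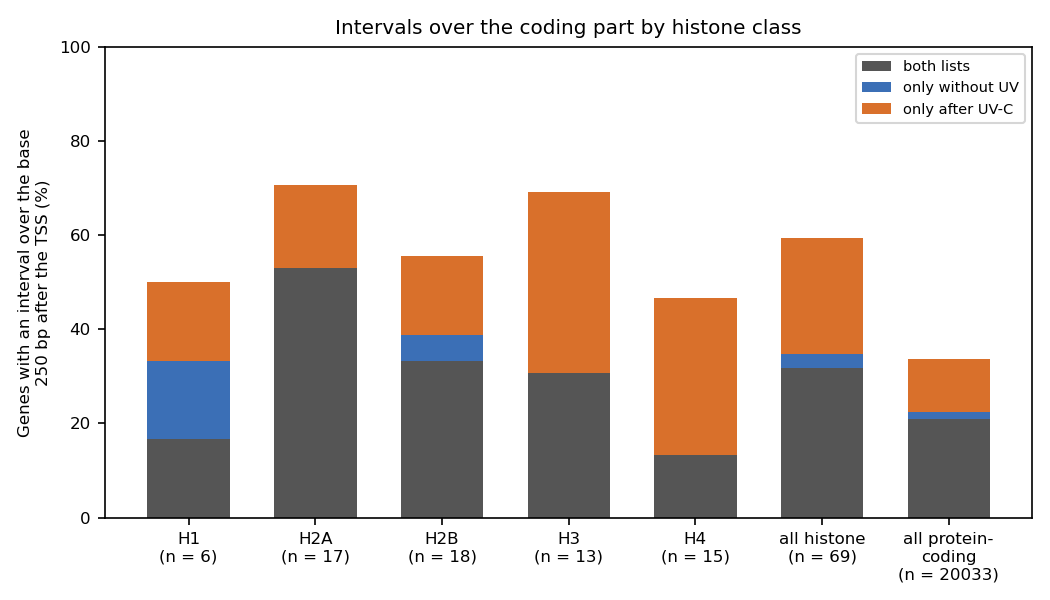
Bars give the share of genes in each histone class, in all 69 histone genes and in all 20033 protein-coding genes (vertical axis, %, from 0) with an H3.3 interval over the base 250 bp after the TSS, split into genes covered in both lists (grey), only without UV (blue) and only after UV-C (orange). The orange share was 5 of 13 H3 and 5 of 15 H4 genes, against 3 of 17 H2A and 3 of 18 H2B genes.

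H3 genes encode the replication-coupled H3.1 and H3.2 proteins. At the base 250 bp after the TSS, 4 of 13 were covered without UV and 9 after UV. H3C1 (chr6:26020451-26020958, plus strand) had no interval without UV and after UV 1 with a −log10 q of 22.99, from 11 bp before to 856 bp after the TSS; −log10 q is the caller's significance score, on which larger means further from background. Its score was higher than that of 90.2% of all UV peaks. H3C8 had an interval over the gene in each list, with a −log10 q of 4.33 without UV (percentile 41.0 of its list) and 27.9 after UV (percentile 92.7). H3C11 had 11.6 without UV (percentile 83.1) and 34.9 after UV (percentile 95.04), and H3C7 had 2.64 (percentile 15.3) and 9.99 (percentile 71.4). H3C10 had no interval without UV and 1 of 7.28 after UV. H3C2 and H3C4 were marked in both lists, but without UV only by intervals outside the gene, which for H3C2 were 2, the stronger of them over its neighbour H2AC4; after UV an interval covered 79.4% of H3C2 and 86.7% of H3C4. H3C3 and H3C6 were marked in both lists with no interval over the canonical gene in either.

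H4 genes encode the most conserved core histone. At the base 250 bp after the TSS, 2 of 15 were covered without UV, H4C11 and H4C12, and 7 after UV. H4C11 had a −log10 q of 3.21 without UV (percentile 24.7) and 21.6 after UV (percentile 89.3), and H4C12 had 4.47 (percentile 42.9) and 18.9 (percentile 87.1). H4C3, H4C4 and H4C8 had no interval over the gene without UV and were covered over 59.5%, 90.1% and 94.6% of their length after UV. For H4C8 this was a weak interval of 4.74 (percentile 38.3). For H4C3 it ran from 164 to 2015 bp after the TSS, with its summit at 1189 bp, past the gene of 405 bases. Without UV an interval already lay just beyond the 3′ end of H4C3. H4C2 had no interval without UV and a weak one of 3.05 after UV (percentile 18.9). H4C1 was covered over 57.7% of its length without UV and 99.8% after UV. H4C5 and H4C13 had no interval over the gene in either list, and H4C6, H4C7 and H4C9 had none by any part of the rule. For the strongest interval over the gene, the median percentile of the H4 genes was 42.9 in the no UV list (3 genes) and 83.0 in the UV list (7 genes), and that of the H3 genes 52.1 (5 genes) and 79.6 (9 genes). The 7 H4 genes include H4C3, at percentile 93.4 through the interval with its summit past the gene.

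**Figure D4:**
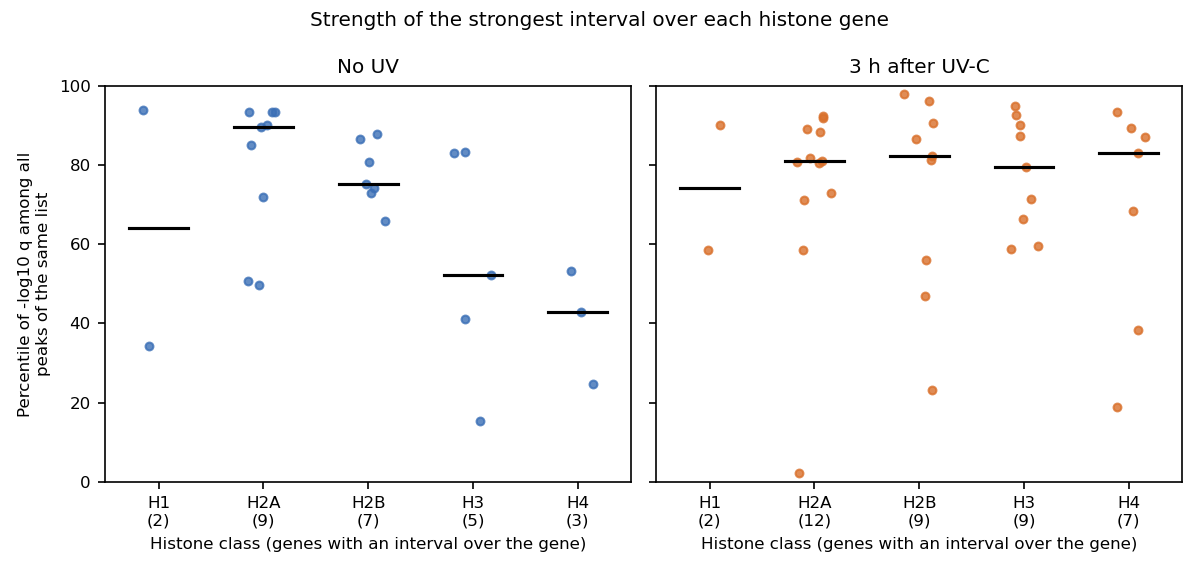
Each point is a histone gene with an interval over its canonical span, placed by the percentile of its strongest such interval among all peaks of the same list (vertical axis, 0 to 100), by class and list; black lines are medians and numbers in brackets are genes. The H4 median is 42.9 without UV and 83.0 after UV, and the H2A median 89.7 and 80.9.

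H2A and H2B genes encode the dimer that flanks the H3 and H4 tetramer in the nucleosome. The H2A genes were already strongly marked without UV, with a median percentile of 89.7 over 9 genes against 80.9 over 12 genes after UV. H2AC4 had a −log10 q of 21.3 without UV (percentile 93.5) and 14.03 after UV (percentile 80.8), and its interval covered 91.3% and 60.5% of the gene. The strongest H2A and H2B intervals after UV lay at H2BC21 (54.1, percentile 98.0) and H2BC17 (39.7, percentile 96.1); the same 2 genes had 8.52 (percentile 74.1) and 6.81 (percentile 66.0) over the gene without UV. By the rule with the 1 kb window, the H2BC21 interval also counts for H2AC20, and the H2BC17 interval for H2AC17 and H3C12. H2BC7 was covered over 64.3% of its length without UV and had no interval over the gene after UV.

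In 12 pairs, an H2A and an H2B gene stand back to back with 193 to 250 bp (median 237 bp) between their TSSs. Intervals covered 0.465% of these shared promoters without UV and 1.72% after UV, and the middle of none of the 12 lay in an interval in either list. For scale, the base 100 bp before the TSS was covered in 13.4% and 22.9% of all protein-coding genes. In other genes of up to 1 kb it was covered in 3.09% and 6.84%. Over the 24 genes of the same pairs, intervals covered 30.0% of the bases without UV and 44.3% after UV, against 25.6% and 42.7% for all 69 histone genes. Both genes of a pair were touched by an interval in 4 pairs without UV and 6 after UV, 1 gene in 4 and 4, and neither gene in 4 and 2. By gene, 12 of the 24 were touched without UV and 16 after UV, against 7.73% and 10.2% of other genes of up to 1 kb. H2BC11 and H2AC11, whose promoter is printed above, were covered over 60.2% and 64.9% of their length without UV and 70.2% and 79.1% after UV. H2AC13 was covered over 91.1% after UV only, by an interval with a −log10 q of 10.6, while H2BC13 across the promoter was not covered and counted as marked through that interval and a weaker one of 4.24 (percentile 33.4) beyond its 3′ end. H2BC9, likewise, was marked only after UV through an interval of 9.99 that lies over H3C7.

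**Figure D5:**
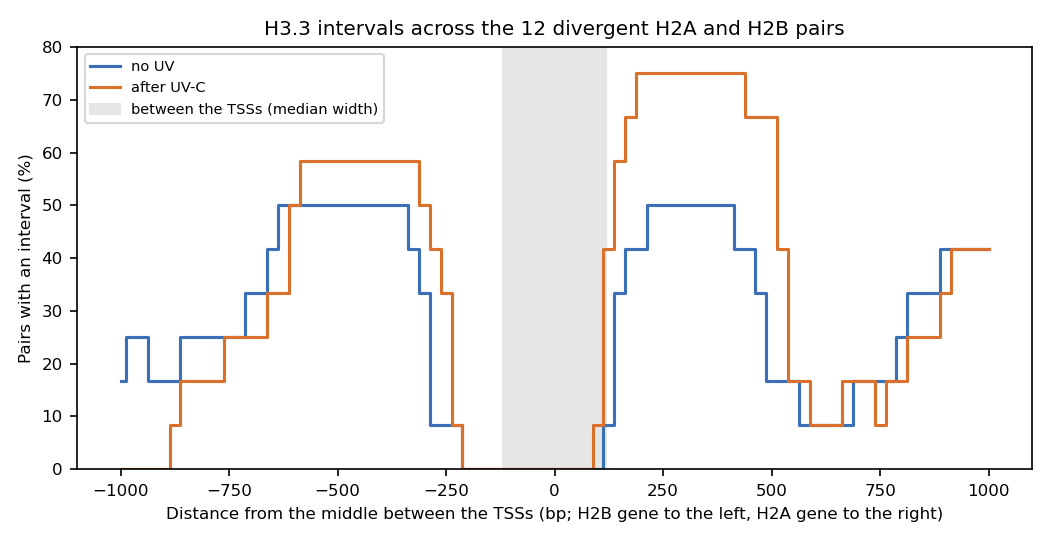
The share of the 12 divergent pairs (vertical axis, %) with an H3.3 interval is plotted against distance from the middle between the TSSs (horizontal axis, bp), H2B genes to the left and H2A genes to the right, without UV in blue and after UV-C in orange; the grey band is the median promoter width. Coverage is 0 in the middle in both lists and 200 bp to the right reaches 41.7% without UV and 75.0% after UV.

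H1 genes encode the linker histones that bind DNA between nucleosomes, and all 6 lie on chromosome 6. H1-4 had the strongest interval of any histone gene without UV, with a −log10 q of 22.4 (percentile 94.0), and 22.8 after UV (percentile 90.04); it covered 86.4% and all of the gene. H1-2 had an interval only after UV (7.11, percentile 58.5), which also covers the TSS and the whole gene. H1-5 had one only without UV, a weak interval of 3.75 (percentile 34.2). H1-1, H1-3 and the testis gene H1-6 had none in either list.

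On chromosome 1, the genes lie at 149.8 Mb (11 genes) and 228.5 Mb (2 genes). At 149.8 Mb the share of bases covered was 30.7% without UV and 31.3% after UV, and at 228.5 Mb 30.3% and 80.3%. On chromosome 6 as a whole it was 24.5% and 44.9%. The 149.8 Mb total holds 6 genes of mostly repeated sequence, described below, and the 2224 bases of H2BC21. H2BC18, H3C13, H2AC20 and H2AC21 were covered over 89.2%, 93.6%, 100% and 95.6% without UV and 100%, 100%, 86.6% and 79.7% after UV. These shares therefore do not compare the places evenly. H2AC20 and H2AC21, which stand end to end, shared 1 interval without UV (21.1, percentile 93.4) and had an interval each after UV, of 26.2 (percentile 92.0) and 27.2 (percentile 92.5). H2BC18 had 13.6 without UV (percentile 86.7) and 23.7 after UV (percentile 90.6), and H3C13 had 11.8 (percentile 83.3) and 19.1 (percentile 87.2). H2AC25 was covered over 57.5% without UV and fully after UV, and its partner H2BC26 over none and 58.3%.

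The chromosome 1 cluster also holds near-identical copies in which short reads have no unique place. Of the 150-base words of H3C14, H3C15, H4C14 and H4C15 and of the 1 kb before each, 100% occur again in hg38, and none of these 4 genes had an interval in either list. For H2AC18 and H2AC19 the share was 82.7%; both were marked only by intervals upstream of the gene. A lack of an interval at these 6 genes says nothing of H3.3 there. The share was between 13.6 and 17.9% for 8 further genes and under 10% for the other 55 genes, of which 20 had the base 250 bp after the TSS covered without UV (36.4%) and 34 after UV (61.8%). Besides the 4 copies and those named above, H4C16, H2BC10, H2AC14 and H2BC14 had no interval in either list.

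Against the other genes of the pathway, the replication-independent histone genes had 8 of 11 marked in each list, near the 63.4% and 65.7% of all protein-coding genes. By the highest scores among them, H3-3B had a −log10 q of 35.7 without UV (percentile 97.7) and 71.1 after UV (percentile 98.9), H3-3A, which encodes the same H3.3 protein, 30.5 and 55.8 (percentiles 96.7 and 98.1), the linker histone gene H1-10 41.4 and 60.3 (percentiles 98.4 and 98.4), and the H2A.Z gene H2AZ2 37.3 and 52.2 (percentiles 97.9 and 97.8). Of 13 genes for factors that make or process histone mRNA, 11 were marked without UV and 10 after UV, under the same background shares. Among them SLBP, which encodes the stem-loop binding protein, had 12.7 without UV (percentile 85.2) and 23.2 after UV (percentile 90.3), and POU2F1, which encodes the octamer factor, 39.7 and 67.8 (percentiles 98.2 and 98.8). Of the 20 other protein-coding genes that lie among the histone genes on chromosome 6, 5 were marked without UV and 8 after UV, against the same 63.4% and 65.7%. Among these, ENSG00000282988 and HFE share intervals that the rule also assigned to histone genes, for HFE through the gene span of H2BC4. For the strongest interval of each marked gene, the median percentile was 85.2 for the histone genes without UV and 81.7 after UV, against 85.2 and 85.8 for all marked protein-coding genes.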

How the data were processed

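The 2 H3.3 peak lists analysed here are from wild-type cells without UV and 3 h after UV-C; the 2 input libraries have no processed file. The submitters' processing notes name bcl2fastq 2.17, Trimmomatic 3.36, BWA 0.7.12, MACS 1.4.2 and hg38; the lists have a layout with q values and summits that later MACS releases write, so the release behind them is unsure. The deposited lists give each peak a score from the caller, a fold enrichment (a ratio over background) and −log10 p and q values, all made by the authors; every peak had a q of at most 0.05. Peaks with the same start and end were taken as 1 interval and set against GENCODE 44 genes, and an interval's strength is the percentile of its −log10 q among all peaks of its own list. Scores depend on depth, which is unknown, so they are set side by side and no difference between lists was drawn from them. Shares carry Clopper-Pearson 95% intervals. Repeats were counted as 150-base words found more than once in hg38. With 1 library per condition no test was made. The scripts used Python 3.11.15, pandas 2.3.3, numpy 2.4.6 and scipy 1.17.1, and were tested on simulated lists. Genes were named by rule (the 5 strongest per list, up to 5 in 1 list only, all H1 genes, all outside chromosome 6 and all without an interval); other named genes, and the position 250 bp after the TSS, were chosen after their values were seen. The members and lists were chosen with earlier results of these data known.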

Additional observations from a re-analysis of the deposited data

How the results depend on the processing

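Of 288 values under other settings, 261 stayed within 1.5 times the reported count and 27 did not. A count of genes has no direction, so a reversal could not be seen. Counting only intervals over the canonical gene body, 26 genes were marked without UV (H2A 9, H2B 7, H3 5, H4 3, chromosome 6 20), H2B had 9 after UV, 15 genes were marked only after UV and 2 only without UV. At a −log10 q of at least 5, 16 genes were marked only after UV, and 1 H1, 5 H3 and 4 H4 genes without UV. Marked only without UV were 2 genes at a −log10 q of at least 3, by summit position and at 50% overlap, and 0 with a 3 kb window. Windows of 2 and 3 kb left 4 and 5 genes marked only after UV, with 4 and 6 H1 genes after UV and, at 3 kb, 4 without UV. With genes under 10% repeated words, chromosome 1 had 5 marked genes in each list, which were all of its genes in that smaller set. Over the base 250 bp after the TSS, an alternative set chosen after seeing the data, the counts of 24 and 39 became 18 and 35 at a −log10 q of at least 5 and were unaltered with equal numbers of peaks; H3 without UV went from 4 to 2, and H4 without UV from 2 to 0, there and, for H4, also 0 with genes under 10% repeated words. No share over all protein-coding genes is given at these other settings. The counts therefore describe only how the histone gene counts move with the setting, and not a standing against the background. Single replicates could not be left out, since each condition is 1 library. No paired analysis was possible because the replicates were pooled and no test was made. Depth limits what a missing interval means: it may lie just under the caller's threshold.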
